A study of Mus musculus with 16 samples.

Results

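The genes described here are 10 that build or control the contractile apparatus of smooth muscle: Myh11, Acta2, Tagln, Cnn1, Smtn, Myocd, Lmod1, Des, Synpo2 and Actg2. They were chosen by name, and all 10 were found among 24562 entries of the count table after the row of highest total was kept for each gene. Their levels were followed in whole aortas and in B1b cells, innate-like B cells that were sorted from peritoneal lavage. All mice were on the ApoE-/- strain, which is prone to atherosclerosis. The aortas came as 5 libraries labelled wt and 5 labelled cre, and the B1b cells as 3 wt and 3 cre libraries. The series describes the cre mice as lacking CD40, a costimulatory receptor, in B cells only, and the wt mice as wild type. Which promoter drove the Cre, which part of Cd40 was altered, and the age, sex and diet of the animals were not given in the labels. Since no label ties a library to its own mouse, p-values reflect only the spread between these libraries, which may be technical.

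Smooth muscle cells of the arterial wall contract when myosin is phosphorylated and pulls on actin filaments. Most genes of this apparatus are switched on by the transcription factor SRF, which binds a short element called the CArG box, together with its coactivator myocardin, which acts through SRF. In atherosclerosis, smooth muscle cells can lower these genes and take on other states, a change known as phenotypic modulation. In whole-aorta RNA, fewer smooth muscle cells and less RNA per cell cannot be told apart.

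The promoters are shown because the CArG box is the element through which SRF and myocardin act on this set. RefSeq start sites on GRCm38.p6 gave a window for 6 of the 10 genes (Acta2, Lmod1, Cnn1, Smtn, Des and Synpo2), and no window was at hand for Myh11, Tagln, Myocd and Actg2. The 250 bases before each start were searched for the CArG box, a motif of 10 bases that reads the same on both strands. An exact match was present in 0 of the 6 windows and in 1.47% of 32851 windows of all genes. A match with at most 1 letter off was present in 2 of the 6, Acta2 and Lmod1, and in 18.6% of all windows. Acta2 had CCCTATATGG from 84 to 75 bases before the start and CCTTGTTTGG from 34 to 25 bases before it. Lmod1 had CTTTAAAAGG from 189 to 180 and CTAAATTTGG from 164 to 155 bases before the start. Both windows are given 5′ to 3′ on the strand of the gene, with these matches in capitals. Acta2 is at chr19:34255374-34255623 on the minus strand and Lmod1 at chr1:135324563-135324812 on the plus strand. Each window rests on 1 RefSeq start site, and for Acta2 the gene span in RefSeq reaches 212 bases further upstream (32 bases for Cnn1 and 19 for Synpo2), so part of these windows lies inside the span given for the gene.
Acta2: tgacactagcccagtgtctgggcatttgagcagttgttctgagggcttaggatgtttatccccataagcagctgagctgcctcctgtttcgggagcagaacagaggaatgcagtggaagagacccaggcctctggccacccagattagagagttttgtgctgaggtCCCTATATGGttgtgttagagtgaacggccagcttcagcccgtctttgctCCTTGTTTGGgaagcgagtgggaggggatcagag
Lmod1: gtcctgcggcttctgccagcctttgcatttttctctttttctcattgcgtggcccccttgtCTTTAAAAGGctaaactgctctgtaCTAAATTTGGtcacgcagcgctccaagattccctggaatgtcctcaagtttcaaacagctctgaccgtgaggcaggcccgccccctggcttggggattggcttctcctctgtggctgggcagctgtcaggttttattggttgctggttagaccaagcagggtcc

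The aortas expressed all 10 genes, and the B1b cells held only traces of them. The 10 genes took 0.9211% to 2.321% of the counts of an aorta and 0.001357% to 0.002237% of those of a B1b library. In wild-type libraries all 10 were higher in aorta than in B1b cells (edgeR quasi-likelihood, Benjamini-Hochberg adjusted p from 2.035e-11 for Cnn1 to 1.8516e-05 for Des), where 40.4% of 14339 genes tested were called higher. The libraries of the 2 kinds did not overlap for any member, as was so for 72.5% of all genes in either direction. Tissue, sorting and preparation differ together between these libraries and cannot be told apart.

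Myh11 and Acta2 had the largest log2 fold changes of the 9 members with counts in wild-type B1b cells. Myh11, the smooth muscle myosin heavy chain (chromosome 16 from 14194527 to 14292188, GRCm38), stood at 3662 ± 983.3 CPM (counts scaled to 1000000 per library) in wild-type aortas (SD, n = 5) and 2.19 ± 0.203 CPM in wild-type B1b cells (SD, n = 3). The log2 fold change was 10.70 (SE 0.36). Acta2, smooth muscle alpha-actin (chromosome 19 from 34240336 to 34255585), stood at 6717 ± 1182 CPM (SD, n = 5) against 4.52 ± 0.661 CPM (SD, n = 3), a log2 fold change of 10.54 (SE 0.30). Actg2, the gamma-actin typical of visceral smooth muscle (chromosome 6 from 83512909 to 83536251), had 0 counts in all 3 wild-type B1b libraries. Pooled over the wild-type libraries, its 88.0 CPM in aorta was at least 715-fold higher than the floor of 3 counts over the B1b group, 0.123 CPM. Muscle actins are close relatives, and the transcripts of Acta2 and Actg2 shared 0 of 1284 exact stretches of 50 bases. Since read length and counter were not given, this does not exclude reads counted for the wrong actin.

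Among the actin-binding proteins, Lmod1, leiomodin 1, which nucleates actin filaments (chromosome 1 from 135324813 to 135368065), had a log2 fold change of 10.03 (SE 0.27). Cnn1, calponin 1, which binds actin and restrains myosin (chromosome 9 from 22099221 to 22109221), stood at 9.67 (SE 0.24). Tagln, transgelin or SM22 (chromosome 9 from 45929628 to 45936058), stood at 9.23 (SE 0.27). Smtn, smoothelin (chromosome 11 from 3517522 to 3539292), stood at 9.15 (SE 0.37). Synpo2, an actin-bundling protein also called myopodin (chromosome 3 from 123076519 to 123236168), stood at 9.69 (SE 0.76). Its 9 counts in wild-type B1b cells all came from replicate 1. Des, desmin, the intermediate filament protein of muscle (chromosome 1 from 75360292 to 75368579), stood at 7.90 (SE 0.82).

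Myocd, the gene of myocardin itself, had the smallest gap of the 10. It lies on chromosome 11 from 65173608 to 65269989. It stood at 70.1 ± 34.7 CPM in wild-type aortas (SD, n = 5) and 1.796 ± 0.180 CPM in wild-type B1b cells (SD, n = 3), which gave a log2 fold change of 5.23 with an SE of 0.48 (edgeR adjusted p = 1.3526e-06). All 6 B1b libraries held between 6 and 20 counts of it.

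**Figure D1:**
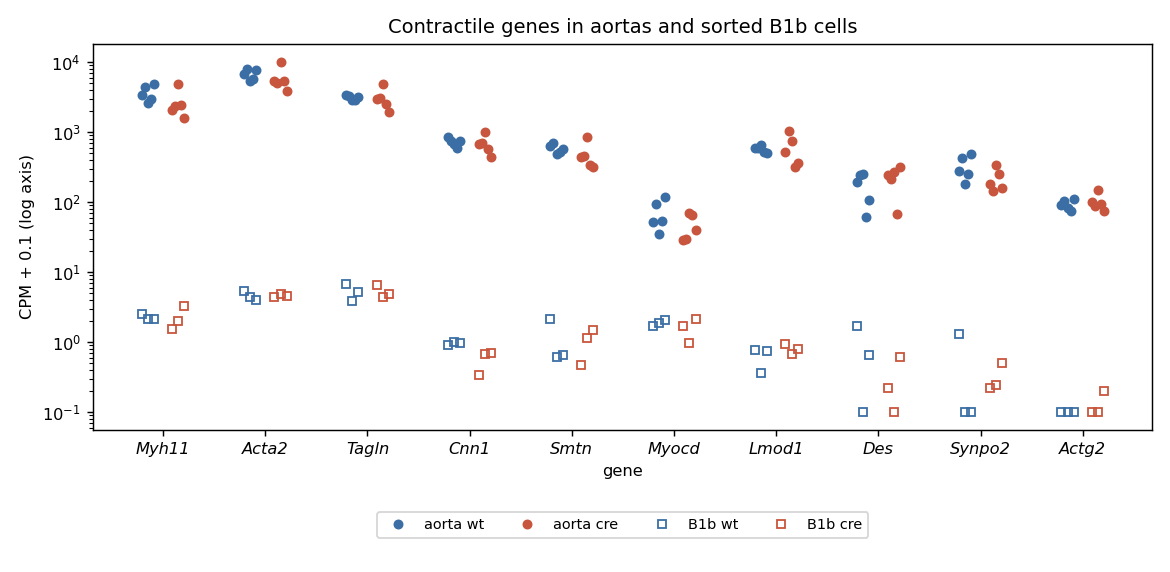
CPM plus 0.1 on a log axis for each of the 10 genes, 1 point per library, with circles for aortas, open squares for B1b cells, blue for wt and red for cre. Every aorta lies above every B1b library for each gene, and Myocd has the narrowest gap.

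Regulators of the programme were not all higher in aorta. Of 11 tested regulators, 5 were higher in wild-type aorta, 2 were lower and 4 did not pass. Of all 14339 genes tested, 5796 (40.4%) were higher and 5082 were lower. Srf stood at 84.6 CPM in aorta and 88.0 CPM in B1b cells (log2 fold change -0.06, edgeR adjusted p = 0.662). Mrtfa, an SRF coactivator related to myocardin, was lower in aorta, at 51.3 against 173.1 CPM. Gata6, a factor of vascular smooth muscle, was higher at 74.9 against 0.480 CPM. All 19 tested actin filament and adhesion genes were higher in aorta, with a median log2 fold change of 7.22 where the median of all genes was 0.09. Srf, Mrtfa and Gata6 are named here after their values were seen.

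Per transcript length, the order of the 10 genes in wild-type aortas ran from Acta2 to Myocd. Levels as RPKM, which is CPM divided by transcript length in kilobases, were 3317 ± 583.2 for Acta2, 1958 ± 153.5 for Tagln, 592.0 ± 157.6 for Myh11 and 304.4 ± 41.5 for Cnn1 (SD, n = 5 each). Smtn followed at 174.0 ± 25.1 RPKM, Lmod1 at 147.2 ± 16.3 and Actg2 at 69.4 ± 11.4. Des stood at 57.0 ± 28.1 RPKM, Synpo2 at 46.4 ± 18.7 and Myocd at 13.8 ± 6.77. The ranges of the 5 wild-type aortas overlapped for 3 neighbours in this order, Smtn with Lmod1, Actg2 with Des and Des with Synpo2. The other neighbours did not overlap.

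In B1b cells the genotypes could be compared for 4 of the 10 genes, and 0 passed (edgeR, 0.716% of 11732 genes called). At an unadjusted p under 0.05 there were also 0 (13.3% of all genes), and DESeq2 and limma-voom called 0. Myh11 had 18, 16 and 19 counts in the wild-type libraries against 12, 13 and 32 in the cre libraries. Acta2 had 39, 34 and 36 counts against 35, 33 and 44. The groups overlapped for all 4 genes, where 18.4% of all genes did not overlap. Log2 fold changes, cre minus wild type, were 0.03 for Myh11 (95% interval from -1.05 to 1.10), 0.0012 for Acta2 (from -0.73 to 0.73), 0.01 for Tagln (from -0.70 to 0.73) and -0.24 for Myocd (from -1.42 to 0.94). The other 6 genes held 0 to 15 counts per library and fell under the filter on low counts. Differences within these intervals were not excluded by these few libraries and low counts.

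The main comparison was that of cre with wild-type aortas, the same 5 wild-type libraries as above. None of the 10 genes passed (edgeR quasi-likelihood, lowest adjusted p = 0.4296, that of Synpo2), where 0.015% of 13364 genes were called. The members with an unadjusted p under 0.05 numbered 0 by edgeR (12.6% of all genes) and limma-voom and 1 by DESeq2, and DESeq2 and limma-voom called 0. The wild-type and cre values overlapped for all 10, where 2.92% of all genes did not overlap. Log2 fold changes were below 0 for 7 members and above 0 for 3, with a median of -0.13, and 49.8% of all genes were below 0, with a median of 0.0023.

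The myosin gene and the alpha-actin gene varied widely within each genotype. Myh11 stood at 3443, 4394, 2605, 2991 and 4960 CPM in wild-type replicates 1 to 5 and at 2047, 2385, 4925, 2474 and 1575 CPM in cre replicates 1 to 5. Cre replicate 3 was as high as the highest wild-type aortas, and the other 4 cre aortas lay below all wild-type ones. The log2 fold change was -0.46 (SE 0.28, 95% interval from -1.06 to 0.15, edgeR adjusted p = 0.518). Acta2 stood at 6705, 8015, 5378, 5790 and 7858 CPM in wild type and at 5322, 4983, 10249, 5447 and 3843 CPM in cre. Cre replicate 3 was the highest of all 10 aortas and cre replicate 5 the lowest. The log2 fold change of Acta2 was -0.18 (SE 0.24, 95% interval from -0.69 to 0.33, edgeR adjusted p = 0.785). Actg2 varied least, from 74.5 to 111.7 CPM in wild type and from 75.0 to 146.9 CPM in cre, and stood at 0.13 (95% interval from -0.25 to 0.51).

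Tagln, Cnn1 and Smtn followed the same samples. Tagln ran from 2841 to 3392 CPM in wild type and from 1947 to 4817 CPM in cre, Cnn1 from 589.4 to 856.9 and from 449.0 to 1022 CPM, and Smtn from 486.2 to 692.8 and from 318.7 to 853.0 CPM. For each of the 3 the cre range enclosed the wild-type range, with cre replicate 3 at the top and cre replicate 5 at the bottom. Their log2 fold changes were -0.02 (SE 0.21), -0.07 (SE 0.20) and -0.27 (SE 0.24). Lmod1 departed from them. It stood at 603.4, 603.2, 665.6, 528.7 and 505.6 CPM in wild type and at 528.0, 1036, 749.1, 317.9 and 361.4 CPM in cre, with its highest value in cre replicate 2, a library of 1645926 counts. Its log2 fold change was 0.04 (SE 0.27), and -0.25 without that library.

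Synpo2 and Myocd had the lowest fold changes of the 10. Synpo2 stood at 278.6, 434.8, 178.9, 250.5 and 494.6 CPM in wild type and at 182.2, 145.5, 336.1, 256.4 and 159.6 CPM in cre. The lowest wild-type aorta, replicate 3, lay among the low cre ones, and cre replicates 3 and 4 lay among the wild-type ones. Its log2 fold change was -0.59 (SE 0.30, 95% interval from -1.24 to 0.05, edgeR adjusted p = 0.430). Myocd stood at 51.6, 92.9, 34.5, 53.6 and 119.0 CPM in wild type and at 28.7, 29.5, 70.1, 64.8 and 39.9 CPM in cre. Wild-type replicates 1, 3 and 4 lay within the cre range, and cre replicates 3, 4 and 5 within the wild-type range. Its log2 fold change was -0.55 (SE 0.36, 95% interval from -1.35 to 0.24). Both values rested in part on single libraries. Without wild-type replicate 5 Myocd stood at -0.30 and Synpo2 at -0.40. Without the 2 aortas under 2000000 counts, wild-type replicate 5 and cre replicate 2, Synpo2 stood at -0.295, Myh11 at -0.29 and Myocd at -0.19, and Lmod1 at -0.30 was the lowest of the 10.

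**Figure D2:**
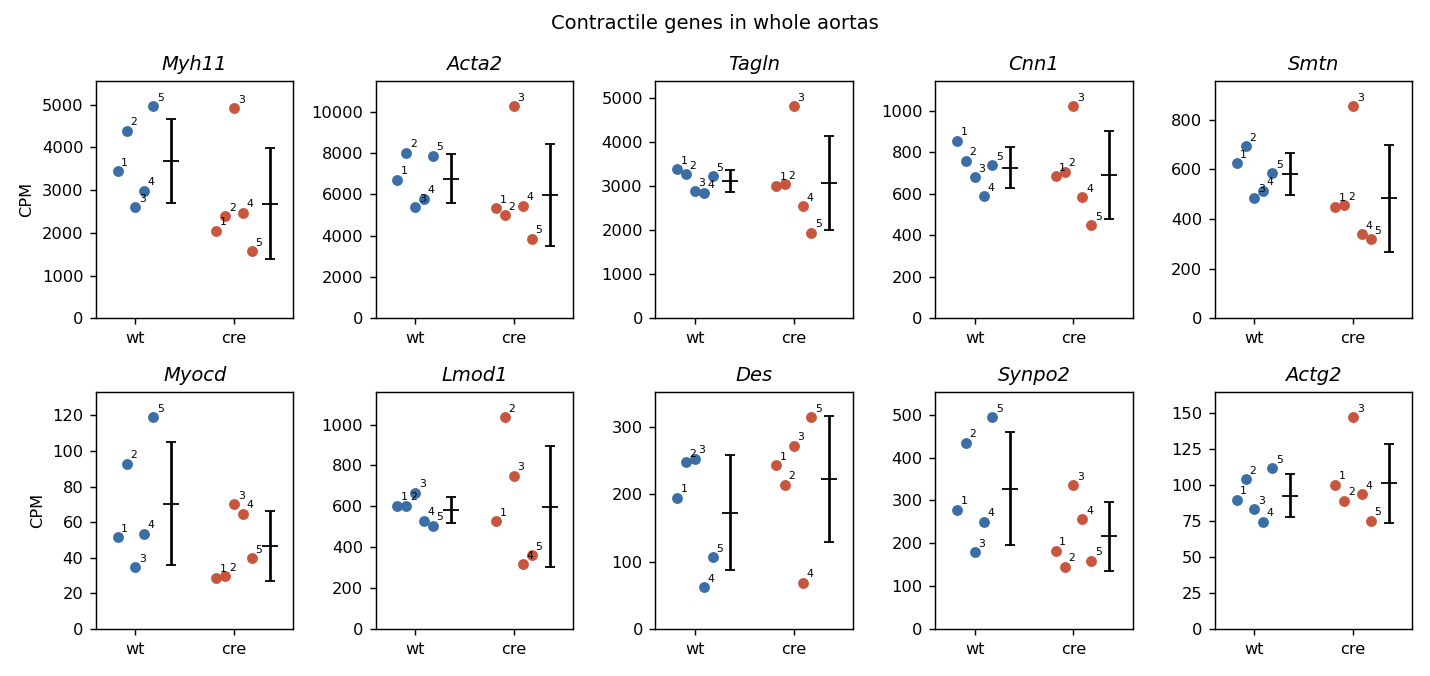
CPM of each contractile gene in 5 wt (blue) and 5 cre (red) aortas, each axis from 0, with replicate numbers beside the points and a black bar for the mean with its SD. The groups overlap in every panel, and cre replicate 3 stands above the other cre aortas in every panel but those of Lmod1 and Des.

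Single aortas moved several members together. Cre replicate 3 was the highest of the 10 aortas for 5 members and cre replicate 5 the lowest for 5. Over the 10 genes the mean departure from the average aorta was 0.60 log2 units in cre replicate 3 and -0.47 in cre replicate 5, and it ran from -0.23 to 0.40 in wild type. Without cre replicate 3, 9 of 10 members were below 0, the median log2 fold change was -0.36 and 4 had an unadjusted p under 0.05, where 11.4% of 13618 genes did in that fit. Myh11 was among the 4 at -0.80, and 0 passed (edgeR lowest adjusted p = 0.2733). Without cre replicate 5 the median was -0.004, with 5 members below 0 and 0 past the threshold (edgeR lowest adjusted p = 0.5461). Acta2 moved from -0.46 in the first of these fits to -0.055 in the second, and Smtn from -0.57 to -0.15. Both libraries were singled out after the values were seen, as the highest and the lowest for 5 members each. A lower median in the first fit and a higher one in the second follow from that choice. The share of all genes had no such choice behind it, so it is not a like comparison.

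Des went apart from the rest. It stood at 194.5, 247.5, 252.3, 62.2 and 106.4 CPM in wild type and at 242.8, 214.3, 271.6, 68.3 and 314.2 CPM in cre. The lowest aortas were wild-type replicates 4 and 5 and cre replicate 4, and the highest was cre replicate 5, which was lowest for Acta2. The log2 fold change was 0.36 (SE 0.45, 95% interval from -0.65 to 1.37, edgeR adjusted p = 0.774). Over the 10 aortas Des had the largest SD of the members, 0.85 log2 units, against 0.29 for Actg2, 0.32 for Cnn1, 0.33 for Tagln and 0.41 for Acta2. It differed from the mean pattern of the other 9 members by a root mean square of 0.89 log2 units, followed by Myocd at 0.58, Lmod1 at 0.47 and Synpo2 at 0.43. Acta2 was closest to its fellow members, at 0.14.

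Desmin is also a protein of heart and skeletal muscle, and markers of these tissues differed between the aortas. The summed level of 11 heart muscle markers, among them the myosin genes Myh6 and Myl7 and the troponin gene Tnni3, ran from 772.5 to 3655 CPM in wild type and from 902.2 to 7849 CPM in cre. All 11 had a log2 fold change above 0, 0 passed (edgeR) and none was at 0 counts in either group. At an unadjusted p under 0.05, 5 were higher, where 918 of 13364 genes tested were higher at that level. DESeq2, which called 127 of 13364 genes higher, called 4 of the heart markers higher, Myl7, Myl4, Nppa and Sln. Without cre replicate 4, edgeR called Myl7, Myl4 and Sln (14 of 13462 genes called). The same genes were called in 1 fit over all 16 libraries (47 of 15091 genes called). The genotypes did not overlap for Myl7, Myl4 and Sln, where 2.92% of all genes did not overlap. The 3 aortas lowest in Des, wild-type replicate 4, cre replicate 4 and wild-type replicate 5, were also the 3 lowest in heart markers, at 772.5, 902.2 and 1876 CPM. The summed level of 10 skeletal muscle markers ran from 23.3 to 192.2 CPM in wild type and from 95.2 to 1123 CPM in cre, and DESeq2 called 3 of these genes higher, Atp2a1, Myh4 and Tnnt3 (edgeR called 0 of the 8 tested, 6 with an unadjusted p under 0.05). The part of heart and skeletal muscle RNA in the level of Des was not tested.

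No marker of fibroblasts, pericytes, adipocytes, endothelium or macrophages passed (edgeR). At an unadjusted p under 0.05, 4 fibroblast and 2 pericyte markers were lower, 1 adipocyte and 2 endothelial markers were higher, and 0 macrophage markers differed. Of all 13364 genes tested, 765 (5.72%) were lower and 918 were higher at that level. The summed level of 9 fibroblast markers ran from 15510 to 21010 CPM in wild type and from 10690 to 18080 CPM in cre, with 8 of 9 below 0 and a median log2 fold change of -0.23 (5 of 9 and -0.16 without cre replicate 4). That of 5 pericyte markers ran from 932.4 to 1611 CPM in wild type and from 774.8 to 1268 CPM in cre, with 4 of 5 below 0 and a median of -0.28 (-0.18 without wild-type replicate 5). That of 9 adipocyte markers ran from 1027 to 5614 CPM in wild type and from 1919 to 6807 CPM in cre. All 8 adipocyte markers tested were above 0, with a median of 0.75 (0.42 without cre replicate 4, 1.29 without wild-type replicate 5 and 1.45 without the 2 aortas under 2000000 counts). Endothelial markers ran from 1130 to 2014 and from 1066 to 2049 CPM, and macrophage markers from 2342 to 5469 and from 3335 to 6010 CPM. Of the tested endothelial markers 7 of 10 were above 0, and of the macrophage markers 4 of 9. The endothelial median was 0.21 (0.11 without cre replicate 5 and 0.33 without wild-type replicate 5, where 0 of 10 were below 0). The macrophage median was -0.0092 (-0.12 without cre replicate 5, with 6 of 9 below 0, and 0.19 without wild-type replicate 4, with 2 of 9). The pericyte sum was highest in wild-type replicates 5 and 2 and cre replicate 3, where the summed contractile genes were highest too. Whether the pericyte markers were read from pericytes or from smooth muscle cells was not tested. The part of the listed cell types in the levels of the contractile genes was not tested either.

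**Figure D3:**
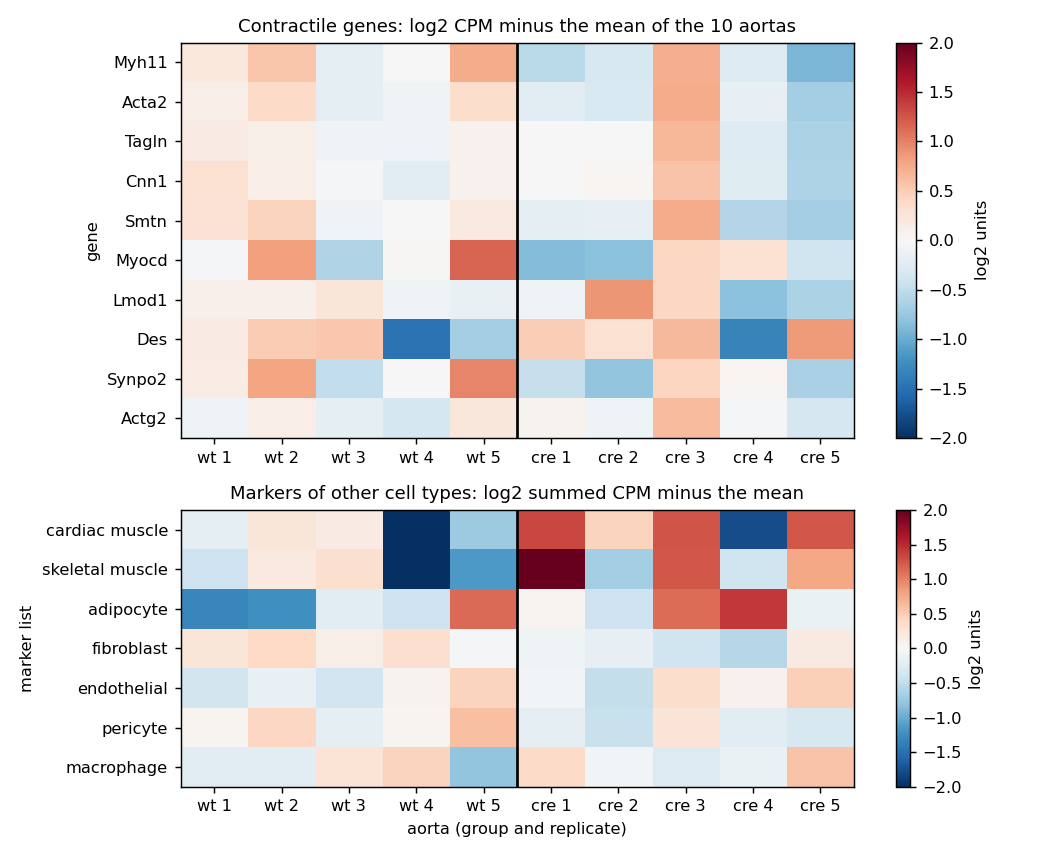
The upper map gives log2 CPM of each contractile gene minus its mean over the 10 aortas, and the lower map gives the log2 summed CPM of marker lists minus the mean, with wt aortas left of the black line. Colours run from -2 to 2, and values beyond are drawn at the limit. Cre replicate 3 is high and cre replicate 5 low across most contractile genes, and the row of Des has its lowest cells in wt 4 and cre 4, where heart markers are lowest too.

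The fold changes of the 10 genes differed with transcript length. The 3 longest transcripts, Synpo2 with 7063 bases, Myh11 with 6214 and Myocd with 5114, had the 3 lowest log2 fold changes, -0.59, -0.46 and -0.55, an order that did not hold without the 2 aortas under 2000000 counts. The shortest, Actg2 with 1333 bases and Tagln with 1595, stood at 0.13 and -0.02. Des with 3028 bases and Lmod1 with 3948 stood at 0.36 and 0.04, out of this order. Across all genes with a known length (13116 of 13364 tested), the median log2 fold change, cre minus wild type, was 0.31 for 793 genes under 1000 bases and 0.13 for 2756 genes of 1000 to 2000 bases. It was -0.10 for 2571 genes of 4000 to 6000 bases and -0.18 for 1584 genes of 6000 bases or more, of which 75.5% were below 0.

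The level of Myh11 relative to Acta2 was then compared aorta by aorta. As a difference in log2 CPM, Myh11 minus Acta2, it stood at -0.96, -0.87, -1.05, -0.95 and -0.66 in wild-type replicates 1 to 5 and at -1.38, -1.06, -1.06, -1.14 and -1.29 in cre replicates 1 to 5. All 5 cre aortas lay below all 5 wild-type ones, with a gap of about 0.01 between the nearest. This was so for 1 of the 9 members set against Acta2. Of 13363 genes set against Acta2 in the same way, 0.718% did not overlap between the genotypes, and 0.0524% had all cre aortas below all wild-type ones. Not set against Acta2, 1.27% of 13364 genes had all cre aortas below all wild-type ones. A gene that does not vary with Acta2 takes on the spread of Acta2 here, so these shares do not show how rare the order of Myh11 is. The comparison was made after the values were seen and is given without a test. The median centred log2 CPM of genes under 1000 bases exceeded that of genes of 6000 bases or more by 0.37 in cre replicate 1, the aorta with the lowest Myh11 relative to Acta2. In wild-type replicate 5, the aorta with the highest, that difference was -0.51. The difference by length was above 0 in all 5 cre aortas, from 0.16 to 0.37, and ran from -0.51 to 0.19 in wild type. The aortas between these extremes did not all follow it. It was -0.44 in wild-type replicate 2, -0.33 in replicate 4 and -0.01 in replicate 1, where Myh11 minus Acta2 stood at -0.87, -0.95 and -0.96. The part of transcript length in this level was not tested.

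With the length trend of each library removed by an offset, an alternative chosen after these values were seen, the median of the longest genes went from -0.18 to 0.01. Under it Myh11 stood at -0.28 (edgeR adjusted p = 0.778), Synpo2 at -0.38 (edgeR adjusted p = 0.683) and Myocd at -0.41 (edgeR adjusted p = 0.740), while Acta2 stood at -0.25 and Des at 0.38. The median of the members was -0.19, with 8 of 10 below 0 and 0 past the threshold.

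**Figure D4:**
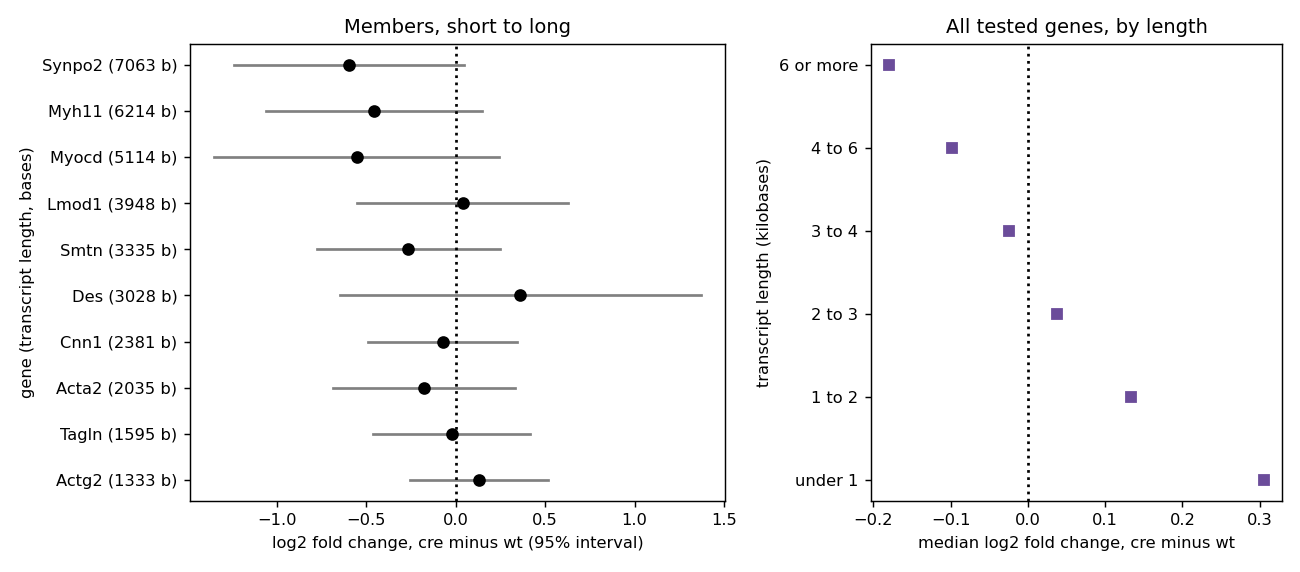
Left, log2 fold change of each contractile gene in aortas, cre minus wt, with its 95% interval, ordered by transcript length. Right, the median log2 fold change of all tested genes in 6 classes of transcript length. All 10 intervals include 0, and the class medians run from 0.31 for the shortest genes to -0.18 for the longest.

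The rest of the contractile pathway was read in the same fit, with 0 genes past the threshold in each of 4 lists (edgeR). Of 19 genes of contraction, calcium handling and relaxation, 15 were below 0 and 6 of these had an unadjusted p under 0.05 (5.72% of all genes were lower at that level), with a median of -0.36. With the length trend removed 18 of the 19 were below 0, with a median of -0.27, and without wild-type replicate 5 the count was 16 and the median -0.24. Cacna1c, the pore of the L-type calcium channel, averaged 93.0 ± 22.7 CPM over wild-type and 55.8 ± 14.9 CPM over cre aortas (SD, n = 5 each). The fitted difference was -0.74 on the log2 scale, with an edgeR adjusted p of 0.217. Kcnma1, the calcium-activated potassium channel that relaxes the vessel, stood at -0.41 and Gucy1a1, a subunit of the nitric oxide receptor, at -0.39.

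Of 19 actin filament and adhesion genes, 16 were below 0, 3 of them with an unadjusted p under 0.05 (5.72% of all genes were lower at that level). The median was -0.23. Once the length trend was removed, 14 of 19 were below 0, with a median of -0.19. Without cre replicate 5 the count was 12 and the median -0.13, without cre replicate 4 they were 12 and -0.15, and without cre replicate 3 they were 16 and -0.36. Vcl, vinculin, which ties actin to the membrane, averaged 499.0 ± 113.3 CPM over wild-type and 338.9 ± 46.2 CPM over cre aortas (SD, n = 5 each). The fitted difference was -0.56 on the log2 scale, with an edgeR adjusted p of 0.243. Itga8, an integrin chain of smooth muscle, stood at -0.74 and Fhl1, a LIM protein of muscle, at -0.36. Of 11 tested regulators 5 were below 0, 2 of them with an unadjusted p under 0.05, with a median of 0.0029 (8 of 11 and -0.12 without cre replicate 3). Srf itself averaged 85.0 ± 7.98 CPM over wild-type and 85.4 ± 20.4 CPM over cre aortas (SD, n = 5 each). Mef2a and Gata6, transcription factors of muscle, stood at -0.34 and -0.40, and Foxo4, which restrains myocardin, at -0.15. Klf5 fell under the filter on low counts.

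Genes of the modulated state were read last. Of 16, 14 were below 0, 4 of them with an unadjusted p under 0.05 (5.72% of all genes were lower at that level). The median was -0.29 (-0.26 with the length trend removed). Without wild-type replicate 4, 10 of 16 were below 0 and the median was -0.055. It was -0.19 when cre replicate 3 was left out and -0.44 without the 2 aortas under 2000000 counts. The groups did not overlap for 1, Col2a1, where 1.27% of all genes had all cre aortas below all wild-type ones. Col2a1, a collagen of cartilage, averaged 80.2 ± 56.1 CPM over wild-type and 26.5 ± 10.1 CPM over cre aortas (SD, n = 5 each). The fitted difference was -1.62 on the log2 scale, with an edgeR adjusted p of 0.254. DESeq2 called Col2a1 lower (adjusted p = 0.0166). In all DESeq2 called 77 of 13364 genes lower, where edgeR and limma-voom called 0. No other gene of the 4 lists was called by DESeq2 or limma-voom. Fn1, fibronectin, stood at -0.80 (edgeR adjusted p = 0.243) and Acan, the cartilage proteoglycan aggrecan, at -0.62 (edgeR adjusted p = 0.280).

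The genes whose pattern over the 10 aortas was most like the mean pattern of the 10 members were sought among 8445 other genes with a mean of at least 20 CPM. Likeness was the root mean square difference of centred log2 CPM, whose median over these genes was 0.43. Hyal1, a hyaluronidase, was closest at 0.10, followed by the predicted gene Gm7694, Marveld1, Osr1, Inpp5a, Cap2 and Lrrc17 at 0.13 to 0.14. The eighth was Myl9, the regulatory myosin light chain of smooth muscle, at 0.14 and 1861 CPM. These 8 genes had log2 fold changes from -0.26 to -0.06 between the genotypes, and none passed (edgeR adjusted p from 0.5116 to 0.9069). They were chosen by their pattern over these same aortas. Fold changes close to those of the members, and the lack of calls, thus follow largely from that choice.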

How the data were processed

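RNA sequencing counts were analysed for 16 libraries, grouped by the genotype and cell type labels. The authors deposited raw read counts per RefSeq transcript, not normalized, in 1 column per sample, matched by title. Per the submitters' processing notes, the tools were STAR 2.5.2b and CASAVA 1.8.2 and the build was mm10. Information on the counter, read length and strand setting was not given in the sources used here. RNA was isolated from TRIzol lysates, per the labels' protocols. Of 35745 rows, 117 took no gene name from RefSeq or GENCODE, and they stayed in as entries of their own. Transcripts of 1 gene shared reads (the smallest of 5 Smtn rows held 97.7% of the largest), so the row of highest total was kept. Libraries then held 6815829 to 9911226 counts (B1b) and 1645926 to 7300894 (aorta). Floors cover counting error only.

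Each comparison was fitted alone on all genes with edgeR 4.0.16 in R 4.3.3 (TMM, filterByExpr, robust quasi-likelihood, Benjamini-Hochberg, threshold 0.05), and the code was tested on simulated data. CPM used TMM-scaled library sizes, and log2 CPM a prior count of 2. Intervals are at 95%. Alternatives were DESeq2 1.42.0, limma-voom (limma 3.58.1), DESeq2 size factors, no filter, other rows per gene, a joint fit and leaving out libraries. The members and lists were chosen with earlier results of these data known. The rule named all members, 3 genes of smallest p per list and the 8 most similar genes. Transcript lengths came from GENCODE M21.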

Additional observations from a re-analysis of the deposited data

Results flagged for a closer look

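Des in cre replicate 4 stood far from the other cre aortas, at 68.3 CPM against 214.3 to 314.2 CPM. The gap to the nearest took 0.749 of the range of the group, above Dixon's 95% critical value of 0.71 for 5 samples. The heart marker sum of that aorta was 902.2 CPM, the lowest of the cre aortas. Without cre replicate 4 the log2 fold change of Des was 0.60 (edgeR adjusted p = 0.552). It was 1 of 20 groups of values examined, and chance alone flags about 1 in 20.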

How the results depend on the processing

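The count of contractile genes past the threshold was 0 in aortas under 9 alternatives and 10 fits that left out a library, 0 in B1b cells under 7 alternatives and 6 such fits, and 10 of 10 for aorta against B1b cells under 8 alternatives and 8 such fits. Values close to 0 changed sign. In aortas Lmod1 stood at -0.065 with limma-voom and at -0.30 without the aortas under 2000000 counts, and Actg2 at -0.043 with the length trend removed. In B1b cells Myh11 stood at -0.013 with limma-voom and Acta2 at -0.0047 in 1 fit over all 16 libraries. Leaving out 1 library at a time, the aortic log2 fold change ran from -0.24 to 0.10 for Tagln, from -0.26 to 0.047 for Cnn1, from -0.25 to 0.20 for Lmod1 and from -0.046 to 0.22 for Actg2. In B1b cells it ran from -0.37 to 0.25 for Myh11, from -0.0875 to 0.12 for Acta2, from -0.17 to 0.23 for Tagln and from -0.51 to 0.012 for Myocd. The cause of these changes was not tested. The other 6 members kept their direction in aortas in every fit run. Genes called in aortas numbered 2 as reported, 204 with DESeq2, 47 in 1 fit over all 16 libraries, 90 without the aortas under 2000000 counts and 14 without cre replicate 4, and 0 to 2 in the other fits. No paired analysis was possible because replicate numbers only follow the order of the samples. In B1b cells 6 members fell under the filter on low counts.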
